A study of Mus musculus with 24 samples.

Results

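Untreated mouse myoblasts carrying a short hairpin RNA (shRNA) against *Brd9* were compared with untreated myoblasts carrying a scrambled, non-target shRNA (scr). The 4 libraries, 2 per group, were picked from the 24 RNA-seq libraries of the series by the condition and replicate in their titles. The study set 3 knockdown (KD) lines, for *Brd9*, *Baf180* and *Baf250a*, beside the scr line, and cultured each line in growth medium alone (NT) or with a metal salt added for 48 h, at 100 µM for CuSO4 and 50 µM for ZnSO4. The methods describe C2C12 cells, an established mouse myoblast line, transduced with lentivirus and selected for the shRNA, whereas the sample labels name primary mouse myoblasts and a lipid-mediated KD. The treatment field of the labels goes against several titles, and the titles were used here. Neither source says whether the replicates came from separate transductions, and an effect of losing *Brd9* cannot be told apart from any other difference between the KD and scr cells. The 2 libraries of a group were described as independent replicates, and the p-values measure the spread between those libraries.

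SWI/SNF complexes use the energy of ATP to move nucleosomes and so change which DNA transcription factors can reach. Mammalian cells build 3 forms around a shared core: canonical BAF (cBAF), marked by Baf250a (gene *Arid1a*), PBAF, marked by Baf180 (gene *Pbrm1*), and non-canonical BAF (ncBAF). Brd9 belongs to ncBAF, where its bromodomain reads acetylated lysine, together with Bicra or Bicral. Proliferating myoblasts hold the muscle program in check and switch on contractile genes when they leave the cell cycle and fuse.

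The methods list a pair of hairpins for *Brd9* and do not say which was in the sequenced cells, so the target sites of both are shown with that of the scr hairpin.

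Brd9 shRNA1: tggactttggcacgatgaaag

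Brd9 shRNA2: caccgaatggtgtccaataag

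scr shRNA: caacaagatgaagagcaccaa

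Each target is 21 bases long and is written 5′ to 3′ on the sense strand. *Brd9* (ENSMUSG00000057649.6) lies on the plus strand of the GRCm38 mouse genome at chr13:73937811-73960895. The first target matched chr13:73940726-73940746, in coding exon 5 of the 16 exons of transcript Brd9-201, and was in 8 of the 12 annotated *Brd9* transcripts. The second matched chr13:73960500-73960520, in the 3′ UTR part of exon 16, and was in 6 of the 12. The scr target matched none of them.

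The 4 libraries held 13994335 to 23054964 counts assigned to genes, and 14277 of 55291 annotated genes had enough counts to be tested. The pair of untreated scr libraries stood apart from the other libraries in their share of ribosomal and other structural RNA, at 5.97% and 3.25% of counts against 1.13% and 1.27% in the untreated *Brd9* KD libraries. Their protein-coding share was 91.9% and 94.7% against 96.7% and 96.1%. The log2 fold changes also followed base composition: over 11915 protein-coding genes, which are not independent replicates, Spearman's rho between log2 fold change and GC content was -0.41 without metal, 0.07 with Cu and 0.37 with Zn. Counts after a correction for GC content and length, and values from the separate Cu and Zn libraries of the same lines, are therefore given beside the gene groups. The part of composition in any single change was not tested.

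*Brd9* itself was at 26.97 and 31.7 CPM in scr and 17.5 and 17.3 CPM in *Brd9* KD (CPM, the count relative to the TMM-scaled library size, used for all levels below). The KD libraries were both below the lower scr library, at a fitted ratio of KD to scr of 0.592 (log2 fold change -0.76, SE 0.13, edgeR adjusted p = 0.00600). The call was lost when *Brd9* KD replicate 2 was left out, with an edgeR adjusted p of 0.0517, and the log2 fold change ranged from -0.88 to -0.64 over the 4 fits that each left out 1 library. *Brd9* was also lower in the KD line with Cu (-0.96, edgeR adjusted p = 0.00291) and with Zn (-0.92, edgeR adjusted p = 0.00157). Across the 8 untreated libraries on a common scale, it was at 26.6 and 32.7 CPM in scr, 17.6 and 16.7 in *Brd9* KD, 36.8 and 39.1 in *Baf180* KD and 40.5 and 38.8 in *Baf250a* KD. The scr libraries thus lay between the *Brd9* KD libraries and those of the other KD lines.

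Among the other SWI/SNF subunits, *Smarca2*, which encodes the BRM ATPase, had the largest log2 fold change. It was at 5.31 and 3.27 CPM in scr and 18.1 and 15.9 CPM in *Brd9* KD, so that the lower KD library was above the higher scr library, and it was called higher (log2 fold change 2.01, SE 0.23, edgeR adjusted p = 8.45e-04). It was also higher with Cu (1.79, edgeR adjusted p = 7.08e-04) and Zn (1.84, edgeR adjusted p = 4.28e-05). The alternative ATPase gene, *Smarca4*, was at 389.6 and 395 CPM in scr and 408 and 392.1 CPM in *Brd9* KD and was not called, with a log2 fold change of 0.029 and an edgeR adjusted p of 0.830. Both alternative ncBAF partners were measured: *Bicra* was at 40.05 and 36.4 against 36.4 and 42.1 CPM (scr against KD) and not called, and *Bicral* was at 36.1 and 38.8 against 50.4 and 53.7 CPM and was called higher (log2 fold change 0.47, SE 0.11, edgeR adjusted p = 0.0158), a call lost without either KD library. None of the 4 tested cBAF subunits was called. Of 4 PBAF subunits tested, *Pbrm1* and *Arid2* (log2 fold change 0.31) were called higher and none lower. Of 15 shared subunits tested, *Smarca2* and *Smarcd1* (0.42) were called higher, and *Smarcd3* (-0.51) and *Actl6a* (-0.32) lower. The shared rises were also called with Cu and Zn, and no shared subunit was called lower with either. No PBAF subunit was called higher with Cu or Zn, and 1 was lower with Zn. The calls of *Arid2* and *Actl6a* held under 6 and 5 of 15 alternatives. *Pbrm1*, the PBAF subunit gene, was at 141 and 97.8 CPM in scr and 193 and 222 CPM in *Brd9* KD (log2 fold change 0.79, SE 0.17, edgeR adjusted p = 0.0109), and this call was lost without KD replicate 2. Its log2 fold change was 0.16 with Cu and -0.14 with Zn, neither called.

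**Figure D1:**
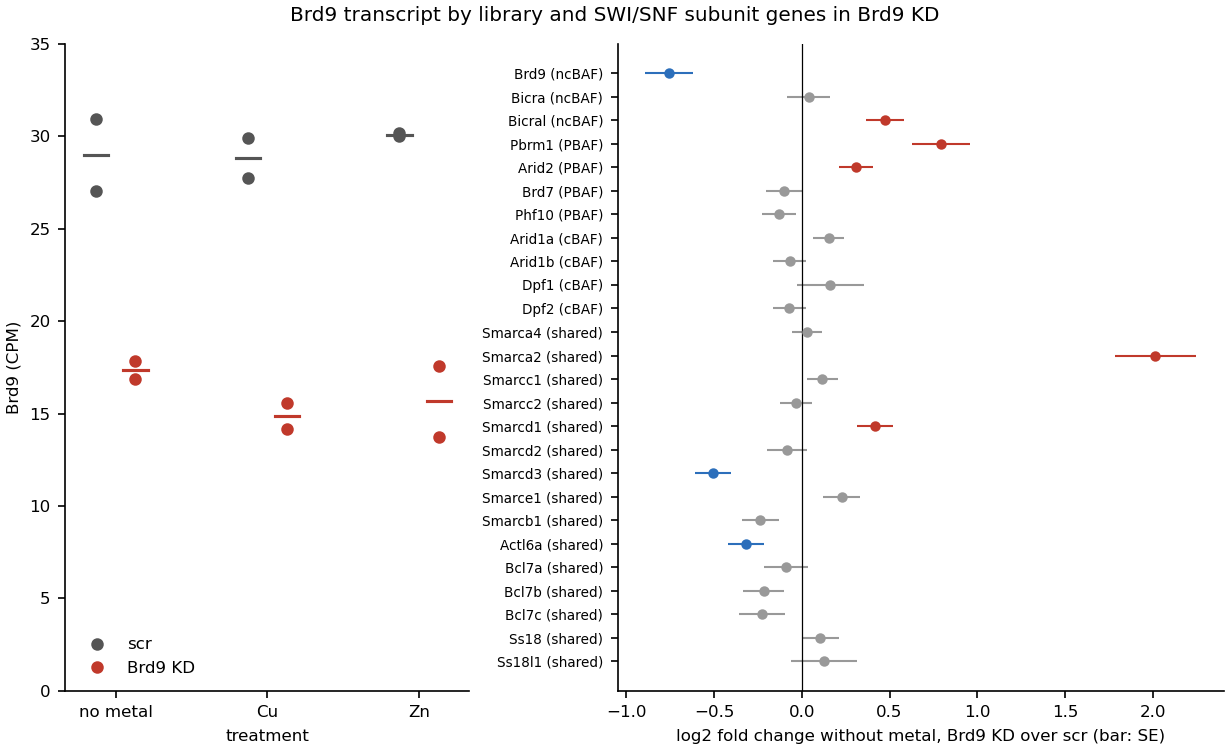
*Brd9* and SWI/SNF subunit genes in scr and *Brd9* KD myoblasts. One panel plots the CPM of *Brd9* in each scr and *Brd9* KD library without metal, with Cu and with Zn, with a point for each library, and the other plots the log2 fold change of each subunit gene without metal with its standard error. *Brd9* is lower in both KD libraries of each condition and *Smarca2*, at 15.9 and 18.1 CPM in KD against 3.27 and 5.31 in scr, is the subunit farthest from 0.

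At an edgeR adjusted p under 0.05, 4165 of 14277 genes tested were differentially expressed genes (DEGs), 29.2% of all tested; 2157 (15.1%) were higher in *Brd9* KD and 2008 (14.1%) were lower. These shares are the background for the gene group counts of the untreated fit. Over all genes tested, 6.94% were called higher and 5.27% lower with Cu, and 12.6% and 10.6% with Zn. A group count after leaving out 1 library comes from a fit with 1 library in a group, where the count over all genes moved too. Such counts are not to be read against the untreated shares. Where 2 pairs of CPM are set against each other, the scr libraries come first, and a lone value in parentheses after them is the log2 fold change. The median log2 fold change was 0.86 among the DEGs that rose, -0.56 among those that fell and 0.01 over all genes tested. The changes of largest size were mostly rises: 889 DEGs rose and 314 fell by at least 2-fold, 272 rose and 77 fell by at least 4-fold, and 34 rose and 11 fell by at least 16-fold. Of the DEGs, 3808 were protein coding, 1895 of them higher. The KD and scr libraries did not overlap for 4164 of the 4165, but the same held for 69.3% of all genes tested, as each group had only 2 libraries. Without *Brd9* KD replicate 1 the count fell to 1919, and without replicate 2 to 994. It was 2809 without scr replicate 2 and 5728 without scr replicate 1. When a change of over 1.5-fold was tested for, 620 genes passed, 415 higher and 205 lower.

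**Figure D2:**
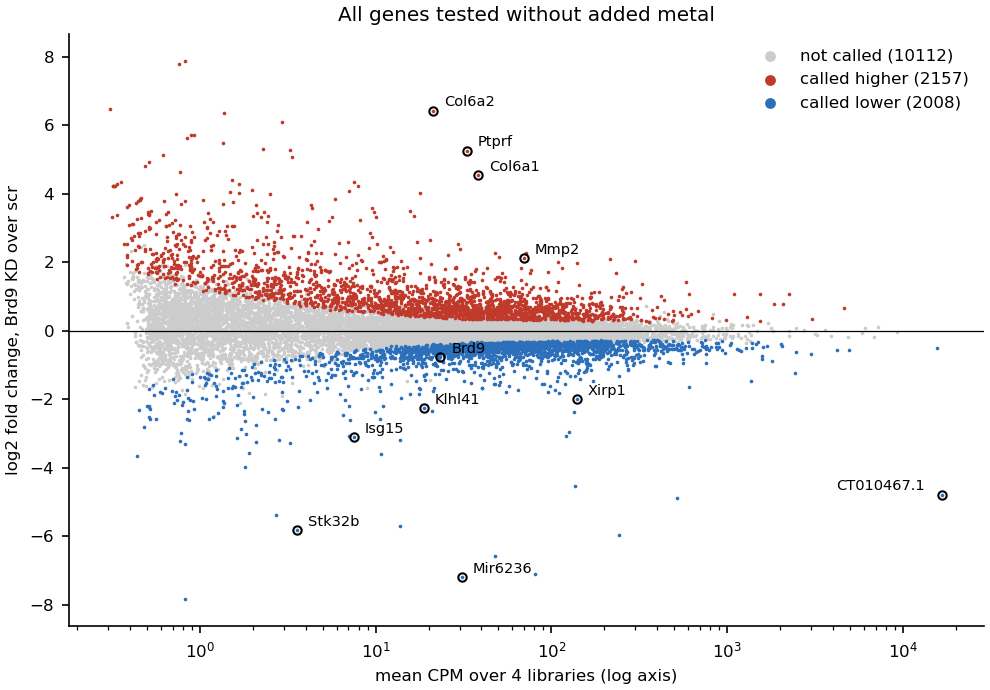
Log2 fold change (*Brd9* KD over scr, both untreated) against mean CPM over the 4 libraries on a log axis for the 14277 genes tested, with 1 point per gene and the 2157 genes called higher and 2008 called lower coloured. The points far above 0 outnumber those far below it, with 272 rises and 77 falls of at least 4-fold.

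The 12 largest rises among genes with a mean count of at least 50 were led by *Col6a2*. *Col6a2*, a chain of the collagen VI of the muscle cell surround, was at 0.758 and 0.273 CPM in scr and 47.3 and 36.5 CPM in *Brd9* KD (log2 fold change 6.43, SE 0.31, edgeR adjusted p = 3.63e-05). *Col6a1*, its partner chain, was at 2.72 and 3.50 CPM in scr and 82.1 and 64.7 CPM in *Brd9* KD (log2 fold change 4.54, SE 0.19, edgeR adjusted p = 2.63e-05). *Col6a3*, which completes the trimer, was already at 56.7 and 55.9 against 231 and 215 CPM (scr against KD) and was called higher (log2 fold change 1.99, SE 0.098, edgeR adjusted p = 3.64e-05). All 3 chains were therefore higher in both KD libraries, with the smallest log2 fold change in the chain that scr cells already expressed. *Ptprf*, a receptor tyrosine phosphatase of cell adhesion, was at 2.08 and 1.36 CPM in scr and 64.6 and 65.1 CPM in *Brd9* KD (log2 fold change 5.26, SE 0.18, edgeR adjusted p = 1.34e-05). *Spon2*, a secreted matrix protein, was at 0.0632 and 0.0909 CPM in scr and 7.34 and 4.25 CPM in *Brd9* KD, and *Pde3a*, which breaks down cyclic nucleotides, was at 0.126 and 0.182 CPM in scr and 6.41 and 6.37 CPM in *Brd9* KD. Their log2 fold changes were 6.09 and 5.28, fitted against scr levels of under 1 CPM, so that their size depends on the few scr counts. *Nkd2*, an inhibitor of Wnt signalling (5.09), *Unc5c*, a netrin receptor (4.35), *Pi15*, a secreted protease inhibitor (4.22), *Fbln7*, a fibulin of the matrix (4.04), *Gas6*, a ligand of TAM receptors (3.85), *Slc1a3*, a glutamate transporter (3.66), and *Tmem45a* (4.09) completed the 12. Each of the 12 was also called higher with Cu and with Zn, and each stayed called when any 1 of the 4 libraries was left out.

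The largest falls comprised structural RNA annotations and protein-coding genes. Of the 12 tested members of the ribosomal and abundant structural RNA list, 10 fell and none rose, with a median log2 fold change of -2.68. The annotation *CT010467.1*, an rRNA sequence, was at 47732 and 16891 CPM in scr and 1124 and 1224 CPM in *Brd9* KD, and the replicates of scr differed from each other by more than either KD library differed from the other. In the Cu and Zn libraries 1 and 4 of the list were called lower, and *CT010467.1* had log2 fold changes of 1.93 and 0.11. Reads of such repeated sequences are shared between copies, so these values are uncertain. *Stk32b*, a serine/threonine kinase gene, was at 7.07 and 6.96 CPM in scr and 0.155 and 0.0685 CPM in *Brd9* KD (log2 fold change -5.82, SE 0.40, edgeR adjusted p = 9.48e-05), with log2 fold changes of -5.68 and -6.19 in Cu and Zn. *Selp*, the adhesion receptor P-selectin, was at 18 and 21.5 CPM in scr and 1.45 and 1.85 CPM in *Brd9* KD (log2 fold change -3.60, SE 0.22, edgeR adjusted p = 6.57e-05). *Cxcl10*, an interferon-induced chemokine, was at 6.38 and 5.55 CPM in scr and 0.827 and 0.343 CPM in *Brd9* KD (log2 fold change -3.27, SE 0.36, edgeR adjusted p = 7.19e-04). The last 3 genes, picked under the same rule of no overlap between the groups, were called lower with each metal too.

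**Figure D3:**
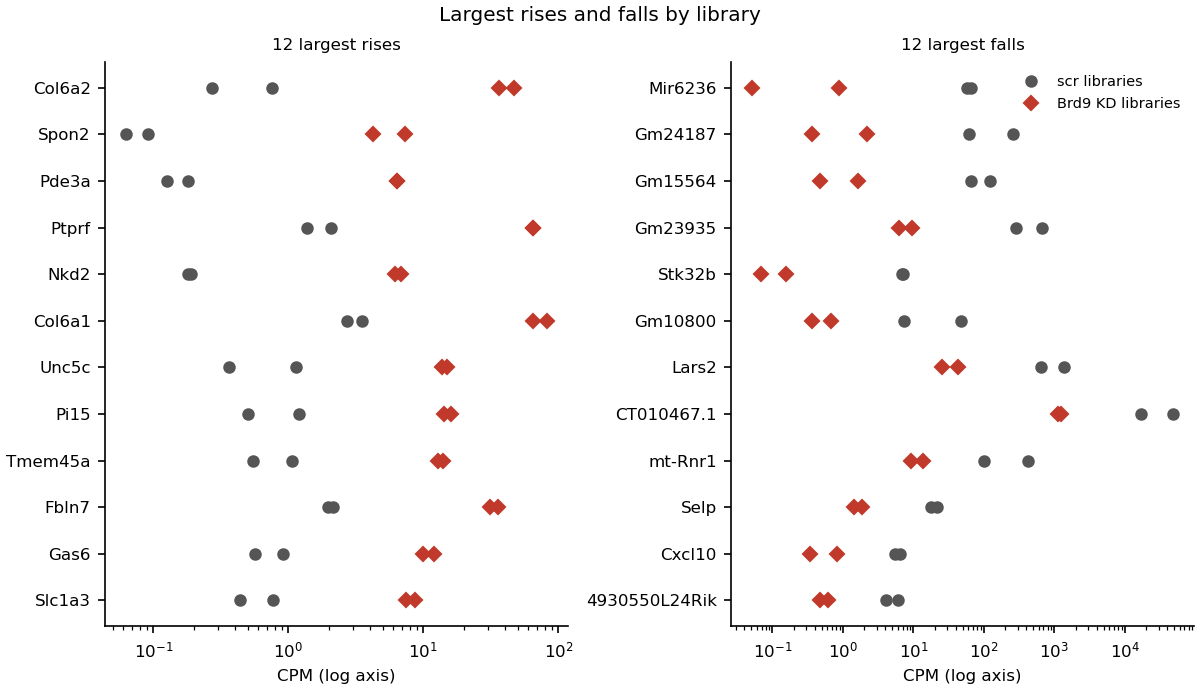
The genes with the largest rises and falls, with a point for each of the 4 untreated libraries on a log axis of CPM after TMM scaling. Only genes whose scr and *Brd9* KD points do not overlap were picked for this figure. *Col6a2*, for example, was at 0.273 and 0.758 CPM in scr and 36.5 and 47.3 CPM in KD.

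Most genes of muscle contraction and cell fusion fell. Of 43 tested, 30 were lower and 1 higher, with a median log2 fold change of -0.72 against 0.01 over all genes tested and a background of 14.1% lower. After the GC and length correction 27 were lower and 1 higher, and 20 were called lower in the untreated, Cu and Zn libraries alike. Without KD replicate 2 the number called lower was 16, and without KD replicate 1 it was 23. *Xirp1*, an actin-binding protein of muscle attachment sites, was at 216 and 229 CPM in scr and 58.97 and 52.5 CPM in *Brd9* KD (log2 fold change -1.996, SE 0.10, edgeR adjusted p = 4.35e-05). *Klhl41*, which stabilises sarcomere proteins, was at 30.8 and 31.7 CPM in scr and 7.08 and 5.89 CPM in *Brd9* KD (log2 fold change -2.26, SE 0.15, edgeR adjusted p = 9.03e-05). *Ttn*, the giant spring protein of the sarcomere, was at 3713 and 3166 CPM in scr and 1267 and 1641 CPM in *Brd9* KD (log2 fold change -1.24, SE 0.14, edgeR adjusted p = 8.33e-04). For each of these 3 genes both KD libraries were below both scr libraries, but 4164 of the 4165 DEGs had no overlap between the groups. *Tnni2* and *Tnnt3*, troponins of fast muscle, were at 4.74 and 5.18 against 0.982 and 1.03 CPM and 13.7 and 12.8 against 4.76 and 5.001 CPM, with log2 fold changes of -2.30 and -1.44. *Des*, the muscle intermediate filament protein desmin, fell, at 2202 and 2466 against 1328 and 1226 CPM (log2 fold change -0.87, SE 0.10, edgeR adjusted p = 9.60e-04). The 1 member that rose was *Tnnt2*, the cardiac troponin T (13.7 and 11.5 against 17.3 and 22.3 CPM, log2 fold change 0.65, SE 0.17, edgeR adjusted p = 0.0257), and its call was lost without scr replicate 2 or KD replicate 2.

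The regulators of the muscle program moved in both directions. Of 23 tested, 7 were higher and 3 lower, or 2 and 1 without KD replicate 2 and 2 and 2 without KD replicate 1. *Myod1*, which commits cells to muscle, was at 109 and 113 CPM in scr and 91.95 and 88.99 CPM in *Brd9* KD, and its call (log2 fold change -0.30, SE 0.095, edgeR adjusted p = 0.0467) held under 3 of 15 alternatives and was lost without scr replicate 2 or either KD library. After the GC and length correction its log2 fold change was -0.074. *Myf5*, its relative in proliferating myoblasts, was at 148 and 112 against 97.1 and 98.7 CPM and was not called (edgeR adjusted p = 0.0534). *Hey1*, a repressor downstream of Notch, fell, at 25.6 and 29.4 against 11.3 and 11.5 CPM (log2 fold change -1.27, SE 0.14, edgeR adjusted p = 6.80e-04), and *Klf5* rose, at 59.7 and 55.4 against 92.7 and 93.1 CPM (log2 fold change 0.69, SE 0.10, edgeR adjusted p = 0.00262). Of the 9 markers of myoblast identity, all were detected and tested, 2 were higher and 5 lower (1 and 3 without KD replicate 2), so markers of the labelled cell type were present in both groups. *Itga7*, the laminin-binding integrin of muscle, was at 929 and 1077 CPM in scr and 529.7 and 517 CPM in *Brd9* KD (log2 fold change -0.94, SE 0.10, edgeR adjusted p = 6.37e-04), and *Chrna1*, a subunit of the acetylcholine receptor, at 643 and 717 against 457 and 398 CPM (log2 fold change -0.67, SE 0.11, edgeR adjusted p = 0.00388). *Vcam1*, an adhesion receptor of muscle stem cells, was at 16.7 and 15.8 against 52.4 and 44.3 CPM (log2 fold change 1.58, SE 0.13, edgeR adjusted p = 1.97e-04). *Pax7*, the stem cell factor, was low throughout, at 1.52 and 1.55 against 3.82 and 4.38 CPM (log2 fold change 1.41, SE 0.27, edgeR adjusted p = 0.00845), and its call was lost without KD replicate 2.

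Matrix genes moved in both directions, with more rises. Of 24 collagen genes tested, 9 rose and 3 fell (6 and 1 without KD replicate 2, 5 and 1 without KD replicate 1), with a median log2 fold change of 0.17. *Col12a1*, a collagen that decorates fibrils, was at 122 and 112 CPM in scr and 482 and 473 CPM in *Brd9* KD (log2 fold change 2.03, SE 0.095, edgeR adjusted p = 3.63e-05). Of 44 matrix glycoproteins and proteoglycans, 19 rose and 9 fell (median 0.33), and 16 and 4 of them were called the same way in the untreated, Cu and Zn libraries alike. Without KD replicate 2 the counts were 17 and 4. *Nid2*, a basement membrane linker, was at 43.8 and 43.8 against 184 and 168 CPM (log2 fold change 2.004, SE 0.10, edgeR adjusted p = 4.16e-05), and *Vcan*, a large proteoglycan, at 54.5 and 45.8 against 171 and 189.8 CPM (log2 fold change 1.85, SE 0.12, edgeR adjusted p = 8.06e-05). *Tnc*, tenascin C, was the matrix gene among the 5 largest rises in CPM, at 1313 and 1413 CPM in scr and 2377 and 2282 CPM in *Brd9* KD (log2 fold change 0.77, SE 0.095, edgeR adjusted p = 0.00117). The fibronectin gene *Fn1*, among the most abundant transcripts, went the other way, at 17907 and 18780.5 CPM in scr and 13133 and 12647 CPM in *Brd9* KD (log2 fold change -0.51, SE 0.11, edgeR adjusted p = 0.0123), and the summed level of the list was lower in KD, at 27525 and 26438 CPM against 30665 and 32249 CPM. *Ccn2*, a matricellular growth factor, fell, at 688 and 789 against 396 and 374 CPM (log2 fold change -0.94, SE 0.10, edgeR adjusted p = 6.24e-04).

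Proteases and their inhibitors were evenly split, with 8 of 26 higher and 8 lower (6 and 3 without KD replicate 2). *Mmp2*, a gelatinase, was at 25.1 and 27 CPM in scr and 124 and 105 CPM in *Brd9* KD (log2 fold change 2.14, SE 0.12, edgeR adjusted p = 6.57e-05), and *Adamts2*, which trims procollagen, at 2.59 and 3.05 against 14.01 and 12.1 CPM (log2 fold change 2.20, SE 0.20, edgeR adjusted p = 2.79e-04). *Mmp15*, a membrane-bound metalloprotease, was at 149 and 167 against 60.2 and 55.2 CPM (log2 fold change -1.45, SE 0.11, edgeR adjusted p = 1.23e-04), and *Mmp10*, stromelysin 2, at 30.8 and 35.05 against 10.6 and 8.70 CPM (log2 fold change -1.76, SE 0.15, edgeR adjusted p = 2.37e-04). The metalloprotease genes thus included both rises and falls that were called in all 3 culture conditions. Among integrins and laminins 9 of 26 rose and 5 fell (4 and 2 without KD replicate 2), with *Lama2*, the main laminin chain of muscle, at 15.7 and 15.3 against 37.6 and 35.4 CPM (1.23). Among cadherins and adhesion genes 8 of 22 rose and 6 fell (4 and 2 without it), with *Alcam*, an immunoglobulin adhesion protein, at 19.3 and 13.96 against 57.3 and 57.8 CPM (1.80) and *Mcam* at 63.04 and 65.3 against 32.6 and 33.2 CPM (-0.96).

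Signalling genes of the Wnt and TGF-beta families contained more rises than falls. In the Wnt list 15 of 37 rose and 3 fell (median 0.41), and 11 and 2 did so in all 3 culture conditions. Without KD replicate 2 the counts were 7 and 2. *Tcf7l2*, a transcription factor at the end of the pathway, was at 17.2 and 15.3 against 33.03 and 36.4 CPM (log2 fold change 1.10, SE 0.13, edgeR adjusted p = 0.00100), and *Fzd6*, a receptor, at 22.6 and 22 against 44.2 and 43.8 CPM (0.98). *Sfrp2*, a secreted antagonist, rose, at 1.96 and 2.64 against 8.73 and 7.26 CPM (1.78), and the ligand *Wnt4* fell, at 10.9 and 14.3 against 3.72 and 4.04 CPM (-1.70). In the TGF-beta and BMP list 14 of 45 rose and 4 fell (median 0.20), or 7 and 3 without that library. The ligand *Bmp4* was at 2.46 and 2.09 CPM in scr and 17.4 and 15.4 CPM in *Brd9* KD (log2 fold change 2.86, SE 0.20, edgeR adjusted p = 9.96e-05). Its antagonists moved in opposite directions: *Nog*, noggin, was at 11.1 and 10.5 against 2.58 and 2.67 CPM (log2 fold change -2.03, SE 0.20, edgeR adjusted p = 3.97e-04), and *Grem1*, gremlin, at 103 and 61.4 against 295 and 401 CPM (log2 fold change 2.09, SE 0.23, edgeR adjusted p = 7.39e-04). The activin subunits *Inhba* and *Inhbb* fell, at 243 and 154 against 76.1 and 103 CPM and at 185 and 204 against 76.8 and 78.7 CPM, with log2 fold changes of -1.146 and -1.32.

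Of 49 growth factor ligands and receptors, 18 rose and 9 fell, or 12 and 3 without KD replicate 2. The rises included 4 secreted ligands, *Fgf7* (2.91 and 1.14 against 9.46 and 14.3 CPM, 2.61), *Hgf* (2.02 and 1.55 against 8.53 and 12.6 CPM, 2.57), *Fgf10* (3.54 and 4.32 against 18.3 and 17.8 CPM, 2.19) and *Fgf2* (2.46 and 1.36 against 7.55 and 6.78 CPM, 1.94). *Igfbp2*, which binds insulin-like growth factors, was the most abundant named fall of the list, at 1816 and 2199 CPM in scr and 771 and 686 CPM in *Brd9* KD (log2 fold change -1.46, SE 0.12, edgeR adjusted p = 1.97e-04). *Kdr*, the VEGF receptor, was at 3.85 and 5.36 against 0.724 and 0.822 CPM (-2.58). Of 26 chemokines and cytokines 12 rose and 4 fell (median 0.48), or 8 and 3 without KD replicate 1. *Cxcl12*, the stromal chemokine, was at 18.9 and 19.05 CPM in scr and 68.02 and 65.98 CPM in *Brd9* KD (log2 fold change 1.82, SE 0.11, edgeR adjusted p = 6.57e-05), and *Cx3cl1*, fractalkine, at 5.31 and 5.64 against 22.1 and 22.9 CPM (2.03). The immediate early list held 10 rises and 6 falls of 24 (6 and 6 without either KD library), and 9 and 5 were called in all 3 culture conditions. *Egr1*, a zinc-finger factor induced by mitogens, was at 25.8 and 25.5 CPM in scr and 61.8 and 58.99 CPM in *Brd9* KD (log2 fold change 1.24, SE 0.11, edgeR adjusted p = 2.37e-04), while the stress factor *Atf3* was at 69.5 and 73.9 CPM in scr and 31.6 and 25.6 CPM in *Brd9* KD (log2 fold change -1.32, SE 0.13, edgeR adjusted p = 3.97e-04) and the AP-1 subunit gene *Jund* at 319.6 and 393 against 184 and 176 CPM (-0.99).

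Falls outnumbered rises among interferon-stimulated genes. Of 39 tested, 18 were lower and 3 higher, with a median log2 fold change of -0.59, and the counts were the same after the GC and length correction. The median ranged from -0.87 to -0.59 over the 4 fits that each left out 1 library. *Isg15*, a ubiquitin-like modifier, was at 12.1 and 14.96 CPM in scr and 1.71 and 1.44 CPM in *Brd9* KD (log2 fold change -3.09, SE 0.23, edgeR adjusted p = 1.23e-04). *Ifit1*, which binds foreign RNA ends, was at 20.5 and 15.6 CPM in scr and 2.69 and 3.36 CPM in *Brd9* KD (log2 fold change -2.59, SE 0.22, edgeR adjusted p = 2.06e-04). *Ifit3* was at 5.81 and 6.18 against 1.24 and 1.30 CPM (-2.24) and *Oasl2*, an OAS-like protein, at 6.51 and 7.001 against 1.86 and 1.44 CPM (-2.02). Each of these 4 genes was also called lower with Cu and with Zn. In all, 14 of 42 tested were lower with Cu and 12 of 42 with Zn, against 5.27% and 10.6% of all genes tested. The 3 rises, *Sting1* (15.3 and 16.6 against 24.4 and 21.99 CPM), *B2m* (176 and 149 against 231 and 223 CPM) and *Cgas* (14.97 and 15.1 against 19.5 and 21.9 CPM), were each lost in at least 2 of the 4 fits that left out 1 library. *Sting1* and *Cgas* act in the sensing of cytosolic DNA, and *B2m* is the light chain of class I MHC.

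The interferon-stimulated response element is the DNA motif read by the STAT and IRF factors of the interferon response. The letters GAAANNGAAA were searched on both strands from 250 bases before to 50 after the RefSeq (GRCm38.p6) start of each gene. They were in 3.49% of 27025 promoters and in 2.8% of the 9900 promoters of genes tested. Of the 32 interferon-list genes with a promoter in the table, 14 held them (43.8%), among them 8 of the 16 called lower and 5 of the 14 not called (35.7%). The windows of the genes above and of *Cxcl10* are shown on the minus strand, 1 match for each gene in capitals. *Isg15* held 3 matches, each overlapping the next, *Ifit1* and *Ifit3* held 2 each and *Cxcl10* held 1. That of *Oasl2* held no match.

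Isg15: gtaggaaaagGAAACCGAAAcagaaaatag

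Ifit1: tcagcagtgaGAAACTGAAActgagactgg

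Ifit3: gaggaaagtaGAAACTGAAAcagacttaaa

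Cxcl10: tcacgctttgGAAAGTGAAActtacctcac

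They lie at chr4:156200871-156200900, chr19:34640794-34640823, chr19:34583397-34583426 and chr5:92349083-92349112, each within the searched promoter. A match describes these letters and is not evidence that a factor was bound.

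Of 60 genes of G2 and mitosis, 21 rose and none fell (median 0.22), and 25 rose after the GC and length correction. Without KD replicate 2 none of the 60 was called, and without KD replicate 1 there were 14 rises. *Knl1*, a kinetochore scaffold, was at 31.7 and 18.9 CPM in scr and 49.9 and 99.8 CPM in *Brd9* KD, *Cenpf*, a kinetochore protein, at 49.2 and 32 against 66.6 and 125 CPM, and *Smc4*, a condensin subunit, at 64.6 and 44.96 against 95.2 and 169 CPM. All were highest in KD replicate 2, and the calls of these 3 genes were lost without it. With Cu 12 of the 60 were higher and none lower, against 6.94% and 5.27% of all genes tested. With Zn 8 were higher and 5 lower, against 12.6% and 10.6%. In all 3 conditions 2 were higher. Of 50 genes of DNA replication, 7 rose and 3 fell, a called share of 20% against 29.2% of all genes tested. Their median ranged from -0.033 to 0.066 over the 4 fits that each left out 1 library. After the GC and length correction 14 rose and 3 fell. *Ccnd1*, cyclin D1, which drives cells out of G1, was steadier, at 179 and 190.0 CPM in scr and 469 and 479 CPM in *Brd9* KD (log2 fold change 1.36, SE 0.091, edgeR adjusted p = 9.03e-05), and was called higher with Cu (1.66) and Zn (1.57). Its paralog *Ccnd2* went the other way, at 556 and 549 against 383 and 378 CPM (log2 fold change -0.54, SE 0.087, edgeR adjusted p = 0.00404). Among 30 targets of p53, 12 fell and 3 rose, or 11 and 1 after the GC and length correction. Their median was -0.24 in the main fit and ranged from -0.34 to -0.19 over the 4 fits that each left out 1 library. *Ddit4*, an mTOR inhibitor, was at 170.4 and 193 against 74.1 and 72 CPM (log2 fold change -1.31, SE 0.10, edgeR adjusted p = 1.66e-04). *Btg2*, an antiproliferative factor, was at 53.3 and 52.4 against 26.7 and 28.6 CPM (-0.94). *Plk2*, a stress-induced kinase, was at 326 and 367 against 185 and 187 CPM (-0.90). Among chromatin regulators expressed in embryonic tissues, *Hmga2*, an architectural DNA-binding protein, rose, at 117 and 105 CPM in scr and 347 and 368 CPM in *Brd9* KD (log2 fold change 1.68, SE 0.10, edgeR adjusted p = 6.57e-05).

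Falls outnumbered rises among nuclear genes of energy metabolism and of the ribosome, and their number varied with the processing and the culture condition. Of 80 nuclear genes of oxidative phosphorylation, 63 fell and none rose (median -0.56). After the GC and length correction 45 fell, and 27 fell when KD replicate 2 was left out. With Cu 21 of the 80 fell and with Zn 23, against 5.27% and 10.6% of all genes tested, and 8 fell in all 3 conditions. *Atp5k*, a small subunit of ATP synthase, was at 29.4 and 43.7 CPM in scr and 13.9 and 13.9 CPM in *Brd9* KD (log2 fold change -1.40, SE 0.19, edgeR adjusted p = 0.00190), and *Ndufa2*, of complex I, at 45.6 and 65.6 against 26.6 and 25.4 CPM (log2 fold change -1.10, SE 0.17, edgeR adjusted p = 0.00341). Log2 fold changes of these genes were -0.63 and -0.63 with Cu and -0.23 and -0.17 with Zn. The mitochondrial genome moved the opposite way: of 12 genes tested, 7 rose and 2 fell, with *mt-Nd1*, of complex I, at 1544 and 1336 CPM in scr and 2835 and 3236 CPM in *Brd9* KD (log2 fold change 1.08, SE 0.12, edgeR adjusted p = 6.13e-04). The 2 that fell were the rRNA genes *mt-Rnr1* (424 and 101 against 9.30 and 13.7 CPM) and *mt-Rnr2* (344 and 86.5 against 22.5 and 28.6 CPM). After the GC and length correction 5 of the list rose and 3 fell (median 0.30). No gene of the list was called higher with Cu or Zn, and 8 were lower with Zn.

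Among 86 genes for cytosolic ribosomal proteins 45 fell and 2 rose (median -0.38), but after the GC and length correction 21 fell and 10 rose, with Cu 1 fell, and none changed in the same direction in all 3 conditions. When KD replicate 2 was left out 7 fell, and when scr replicate 1 was left out 64 fell. Of 77 mitochondrial ribosomal protein genes 25 fell and none rose (2 fell without KD replicate 2), and none was called in all 3 conditions. For glycolysis 15 of 23 fell and 2 rose (median -0.47), and 14 fell after the correction and 7 without KD replicate 2. *Aldoa*, aldolase A, was at 1916 and 2101 CPM in scr and 1176 and 1093 CPM in *Brd9* KD (log2 fold change -0.82, SE 0.099, edgeR adjusted p = 0.00102), and *Pfkp*, a phosphofructokinase, at 207 and 233 against 125 and 122 CPM (-0.83). *Pfkp* was also called lower with Cu (-0.85) and Zn (-0.46). Of the glycolysis list, 6 fell and 1 rose with Cu, and 2 fell and 5 rose with Zn. In all 3 conditions 2 fell and 1 rose. For the mitochondrial ribosomal protein genes, 19 fell and 3 rose after the GC and length correction.

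Genes of sterol synthesis that changed all rose. Of 24, 10 were higher and none lower (median 0.30), 12 after the GC and length correction, and 7 were higher in all 3 conditions, with 4 higher when either KD library was left out. *Sc5d*, a sterol desaturase, was at 31.4 and 30.5 CPM in scr and 55.2 and 62.2 CPM in *Brd9* KD (log2 fold change 0.92, SE 0.11, edgeR adjusted p = 0.00116). With no metal added, genes that handle zinc and copper were split, with 10 of 37 higher and 8 lower. After the GC and length correction 6 were higher and 8 lower. Their median ranged from -0.21 to -0.046 over the 4 fits that each left out 1 library. The metallothioneins *Mt1* and *Mt2*, which bind both metals and respond to the factor MTF1, were among those that rose. *Mt2* was at 18 and 20.3 CPM in scr and 64.8 and 59.7 CPM in *Brd9* KD (log2 fold change 1.70, SE 0.12, edgeR adjusted p = 1.02e-04), and *Mt1* at 54.7 and 63.7 CPM in scr and 164 and 152 CPM in *Brd9* KD (log2 fold change 1.42, SE 0.11, edgeR adjusted p = 1.67e-04). *Cp*, the copper oxidase ceruloplasmin, was at 23.6 and 19.9 against 44.5 and 44.3 CPM (log2 fold change 1.03, SE 0.13, edgeR adjusted p = 0.00107), and *Ccs*, the copper chaperone of superoxide dismutase, at 22.6 and 27.1 against 14.4 and 11.4 CPM (log2 fold change -0.94, SE 0.16, edgeR adjusted p = 0.00573), a call lost without KD replicate 2. Among NRF2 targets and glutathione genes 11 of 45 rose and 9 fell, with 18 and 7 after the correction, and 7 and 0 without KD replicate 2. With Cu 13 rose and none fell, and 9 rose in all 3 conditions. *Nqo1*, a quinone reductase, was at 12.5 and 12.96 CPM in scr and 38.4 and 30.3 CPM in *Brd9* KD (log2 fold change 1.43, SE 0.15, edgeR adjusted p = 5.86e-04), and *Sod3*, the extracellular superoxide dismutase, at 15.5 and 16.3 against 41.3 and 38.7 CPM (log2 fold change 1.33, SE 0.12, edgeR adjusted p = 2.71e-04).

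Markers of other cell types moved in both directions. Of 11 fibroblast and mesenchymal progenitor markers tested, 5 rose and 1 fell (2 and 1 without KD replicate 2). *Cd34* was at 15.2 and 19.5 against 47.8 and 37.4 CPM (1.29) and *Ly6a*, Sca-1, at 9.29 and 10.9 against 25.1 and 19.9 CPM (1.153), whereas the tendon factor *Scx* was at 89.1 and 102 against 46.3 and 49.3 CPM (-1.0). The summed level of the fibroblast list was 621 and 652 CPM in scr and 716 and 681 CPM in KD. Of 12 adipocyte markers 4 could be tested and 2 rose, with *Adipoq* and *Plin1* below the filter, and *Cebpa*, a fat cell regulator, was at 2.72 and 2.91 against 7.70 and 8.15 CPM (1.49). Of 15 endothelial and blood markers 4 could be tested and 1 fell (*Kdr*), and *Pecam1* and *Ptprc* were below the filter. Of 12 epithelial markers 4 could be tested, and their summed level was under 5 CPM in every library. Of 20 neural markers 8 could be tested, and 3 rose and 5 fell, with 1 fall without KD replicate 1 and 2 without KD replicate 2. *Nes*, the intermediate filament nestin, was at 2334 and 2399 against 1665 and 1809 CPM (-0.45), a call lost without KD replicate 1, and *Map2* was at 5.87 and 3.55 against 13.2 and 15.9 CPM (1.65). The summed level of the neural list was 3303 and 3342 CPM in scr and 2646 and 2775 CPM in KD. In such bulk libraries fewer cells of a type and less RNA per cell cannot be told apart, and the part of other cells in the changes was not tested.

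**Figure D4:**
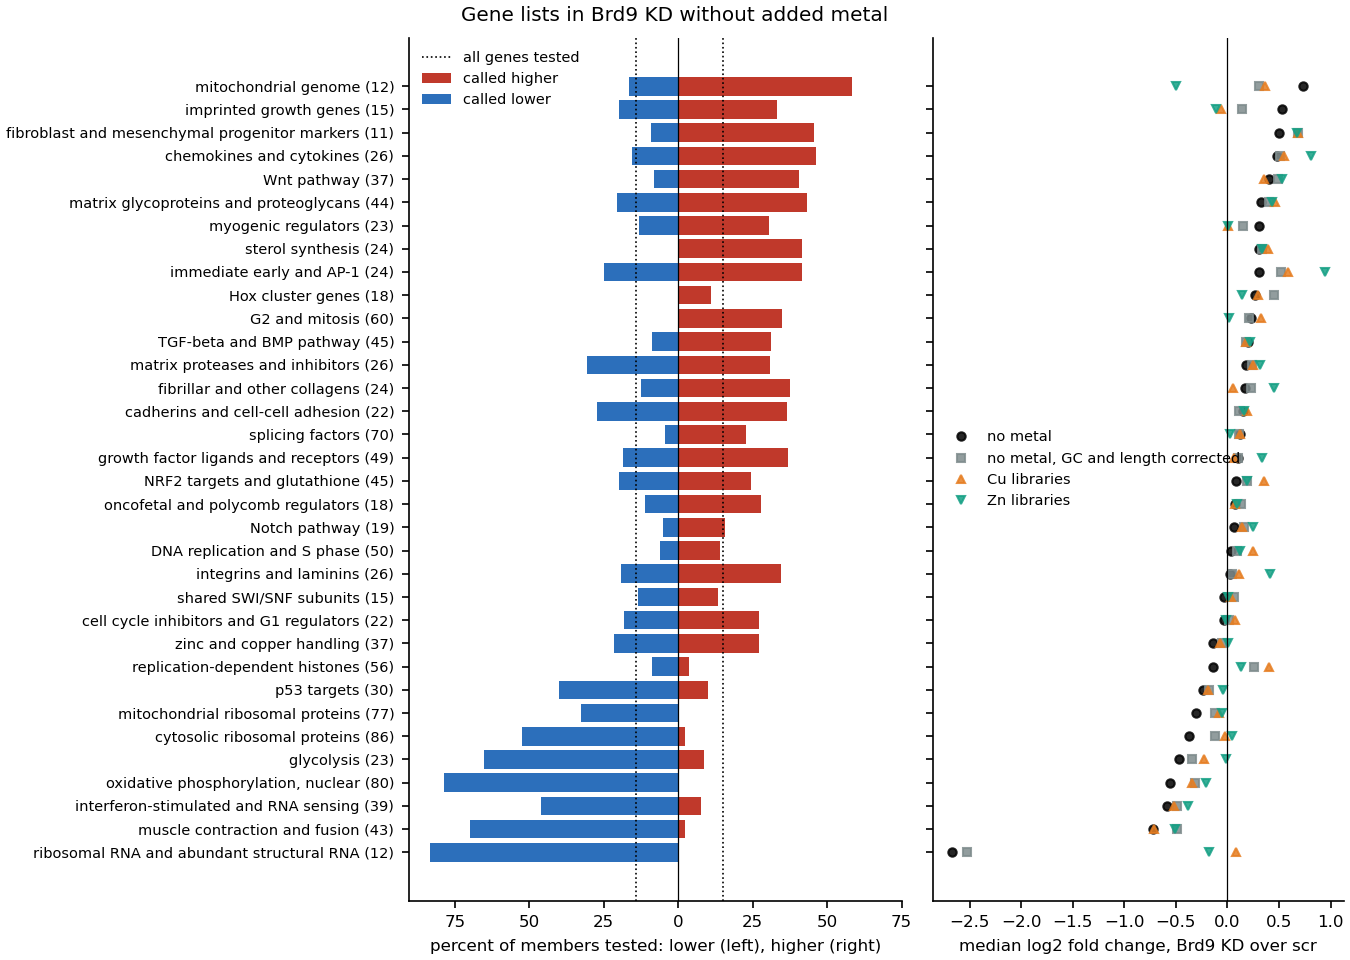
Gene lists in untreated *Brd9* KD against scr myoblasts. One panel gives the percentage of tested genes called higher or lower in each list, and the other gives the median log2 fold change from the main fit, after the GC and length correction, and in the Cu and Zn libraries. The muscle contraction list, with 30 of 43 genes lower, and the interferon list, with 18 of 39 lower, keep a negative median in each setting shown.

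The same KD contrast in the metal-treated libraries used no library of the untreated contrast, though the cells carried the same hairpins and may share a transduction with the untreated ones. Of the DEGs that rose without metal, 2132 were tested with Cu, where 783 (36.7%) were called higher and none lower, against 6.94% of all genes tested called higher. Of those that fell, 2001 were tested with Cu and 626 (31.3%) were called lower and none higher, against 5.27% called lower. With Zn, 903 of 2148 (42.0%) were called higher and 140 lower, and of the falls 636 of 1994 (31.9%) were called lower and 19 higher, against 12.6% called higher and 10.6% called lower. In all, 1218 genes, 29.2% of the DEGs, were called in the same direction in the 3 conditions, 739 higher and 479 lower. Of these, 1193 were also called after the GC and length correction. Over all DEGs that correction left 2913 (69.9%) called in the same direction, and the sign of the log2 fold change reversed for 99.

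**Figure D5:**
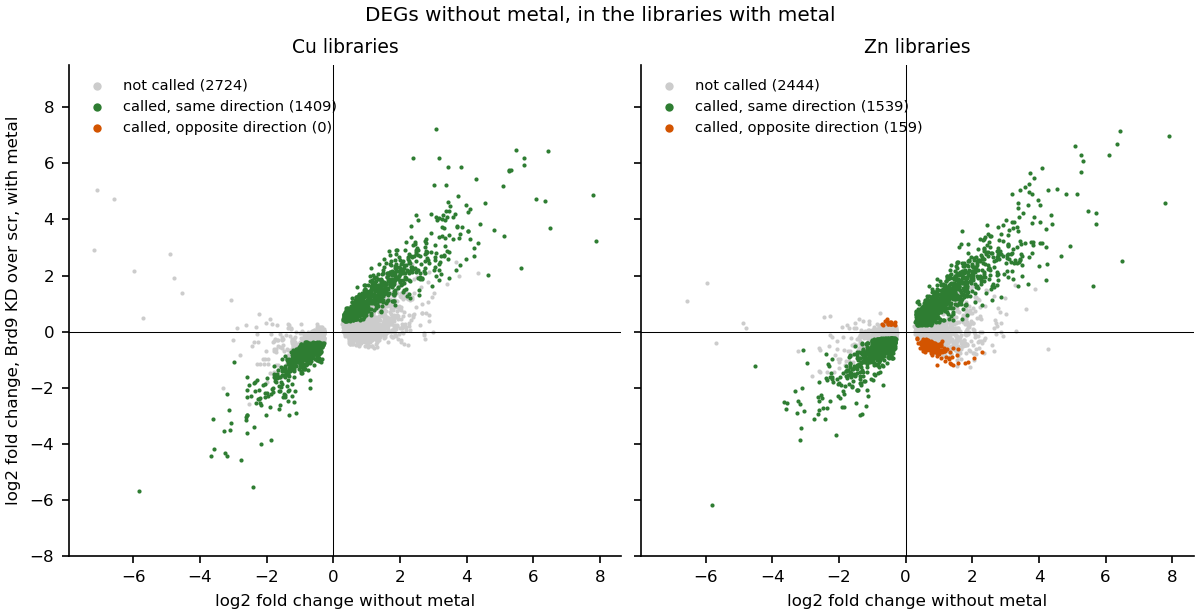
Log2 fold change of *Brd9* KD over scr in the Cu libraries and in the Zn libraries against that without metal, with 1 point per gene and axes in log2 units. Of the genes called without metal, 783 rises and 626 falls are called the same way with Cu and 903 and 636 with Zn, and the 159 genes called the opposite way are all in the Zn panel.

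Whether the KD effect itself differed by metal was tested as an interaction over 15721 genes. For Cu against no metal edgeR called none, with 2335 at an unadjusted p under 0.05, and DESeq2 called 20. For Zn against no metal edgeR called 288, 1.83% of those tested, 153 (0.973%) with a higher KD effect in Zn and 135 (0.859%) with a lower one. The count of 288 rested on single libraries: it was 0 without any one of 6 of the 8 libraries, 2 without *Brd9* KD Zn replicate 2 and 2483 without untreated scr replicate 1. It was 4 with the replicate block and 42 with RLE scaling. After the GC and length correction 2 genes were called, *Mt2*, which was among the 288, and *Mt1*, which was not (log2 difference -0.78 and edgeR adjusted p = 0.0551 without the correction). In the corrected fit the KD effect on *Mt2* was lower with Zn by a log2 difference of -1.64 (edgeR adjusted p = 4.60e-05) and that on *Mt1* by -1.12 (edgeR adjusted p = 0.0191). In the uncorrected fits *Mt2* had log2 fold changes of 1.70 without metal, 1.82 with Cu and 0.47 with Zn. *Mt1* had 1.42, 1.63 and 0.64.

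Set directly against the other untreated KD lines, *Brd9* KD differed at fewer genes from *Baf180* KD than from *Baf250a* KD. Against *Baf180* KD, 2174 of 14880 genes differed (14.6%), 773 (5.19%) higher and 1401 (9.42%) lower in *Brd9* KD. Against *Baf250a* KD, 7059 of 14861 differed (47.5%), 3604 (24.3%) higher and 3455 (23.2%) lower. All 3 KD lines are set against the same pair of scr libraries, so their levels are given side by side. *Col6a1* was at 2.68 and 3.61 CPM in scr, 82.7 and 62.5 in *Brd9* KD, 193 and 173 in *Baf180* KD and 370.2 and 373 in *Baf250a* KD. *Stk32b* was at 6.98 and 7.17 CPM in scr and under 0.3 CPM in each of the 6 KD libraries. *Gas6* was under 1 CPM in both scr libraries and at 12.2 and 9.66, 9.79 and 9.35 and 11.7 and 10.1 CPM in *Brd9*, *Baf180* and *Baf250a* KD. These 3 genes were picked from the largest changes between *Brd9* KD and scr, and all 6 KD libraries were on the same side of the shared scr pair. How many genes do so was not counted.

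Levels of other genes differed between the KD lines. *Xirp1* was at 213 and 236 CPM in scr, 59.4 and 50.8 in *Brd9* KD, 27.1 and 28.8 in *Baf180* KD and 19.3 and 21.02 in *Baf250a* KD, so *Brd9* KD was above both other KD lines by log2 differences of 1.02 (edgeR adjusted p = 3.98e-04) and 1.52 (edgeR adjusted p = 3.77e-10). *Mmp10* was at 30.4 and 36.1, 10.7 and 8.41, 1.56 and 1.37 and 0.159 and 0 CPM in the same order. *Tnc* was highest in *Brd9* KD, at 2394 and 2205 CPM against 1180.4 and 1202 in *Baf180* KD (0.99, edgeR adjusted p = 3.27e-04) and 912 and 929 in *Baf250a* KD (1.39, edgeR adjusted p = 1.13e-10). *Hmga2* was at 349 and 355 CPM in *Brd9* KD and 369.9 and 328 in *Baf180* KD, against 116 and 108 in scr and 123.2 and 133 in *Baf250a* KD, so the *Brd9* and *Baf180* KD libraries overlapped. By list, 36 of 49 matrix glycoproteins and 34 of 43 Wnt genes were lower in *Brd9* KD than in *Baf250a* KD, and 58 of 60 genes of G2 and mitosis were higher. Of 49 muscle contraction genes, 30 were lower and 6 higher than in *Baf180* KD, *Tnnt3* among the lower (-1.40, edgeR adjusted p = 6.15e-04).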

How the data were processed

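RNA was sequenced in 24 libraries, 2 for each of 12 conditions, and the 4 untreated scr and *Brd9* KD libraries are the subject here. Per the methods and labels, the authors removed ribosomal RNA with antisense oligonucleotides and RNase H, made directional libraries, aligned paired-end reads to the mm10 genome with STAR, kept uniquely aligned reads and counted them per gene and strand with featureCounts. The deposited values are raw, unnormalised counts for 55291 genes. Tool versions are not given in the sources used here. Groups and replicate numbers came from the sample titles.

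Counts were analysed in R 4.3.3 with edgeR 4.0.16 (filterByExpr, TMM scaling, quasi-likelihood test) and Benjamini-Hochberg adjustment over all genes tested, with a threshold of 0.05. Only the 4 libraries entered the untreated fit. CPM are after TMM scaling. Separate 4-library fits gave the Cu and Zn contrasts and the contrasts with *Baf180* and *Baf250a* KD. The interactions came from a fit of the 12 *Brd9* KD and scr libraries, with 8 of them in each contrast. Gene positions, lengths and GC content came from GENCODE M21 (GRCm38) and matched 53701 symbols. The GC and length correction used splines with 5 degrees of freedom.

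Named genes were the SWI/SNF subunits and myoblast markers, the 12 largest rises and falls among genes with a mean count of at least 50, the 5 largest in CPM, and up to 4 genes per direction of each of 43 lists. The 12 largest rises and falls were picked only among DEGs with no overlap between the KD and scr libraries. The members and lists were chosen with earlier results of these data known. DESeq2 1.42.0, other scalings, filters, groupings and leaving out each library were tried as alternatives. On simulated counts with 200 genes changed by 1 log2 unit, 81% were called in the untreated comparison over 14277 genes and 59% and 59.5% in the interactions.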

Additional observations from a re-analysis of the deposited data

Results flagged for a closer look

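The named genes below had a *Brd9* KD effect with Zn that differed from the one without metal in the interaction test of edgeR, with adjusted p between 0.0223 and 0.0493. The test called no gene when any one of 6 of the 8 libraries was left out, and 4 with the replicate block, of which *Mt2* and *mt-Nd4* are listed here. Values are log2 differences, the KD effect with Zn minus that without metal. Genes of the mitochondrial genome had a lower KD effect with Zn: *mt-Nd1* -1.50, *mt-Cytb* -1.43, *mt-Nd5* -1.56, *mt-Nd2* -1.43 and *mt-Nd4* -1.58. The KD effect was also lower for *Ccne2* at -2.03, *Rb1* at -1.04, *Tra2b* at -0.96 and the metallothionein gene *Mt2* at -1.24. It was higher for the rRNA annotation *CT010467.1* at 4.89, for the ribosomal protein genes *Rplp2* at 0.84 and *Rps23* at 0.79, and for the metabolic genes *Uqcr11* at 0.86 and *Pfkl* at 0.90. Stress and transcription genes that were higher were *Ddit4* at 0.90, *Atf3* at 0.88, *Btg2* at 0.59, *Msc* at 0.68 and *Cbx8* at 0.77. The remaining genes were *Slc39a7*, a zinc transporter, at 0.88, *Sod3* at 0.85, *Cadm4* at 0.89 and *Inhbb* at 0.59. Of these, *Mt2* kept its call after the GC and length correction. The interaction log2 differences over 12447 protein-coding genes had a Spearman's rho of 0.66 with GC content, and the part of composition in the listed differences was not tested.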

How the results depend on the processing

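The untreated count of 4165 stayed within 1.5 times under DESeq2 (3308), other scaling (4116), all genes with at least 1 count (4802), a replicate block (3566), GC and length correction (4080) and thinning (3566). Of the 4080, 2913 were among the 4165, and 99 of the 4165 changed sign. It moved to 620 with a tested fold of 1.5, and to between 994 and 5728 when 1 library was left out. *Brd9* ranged from -0.88 to -0.64. Same-numbered libraries of the untreated comparison deviated in opposite ways (correlation -0.26). Whether the replicate numbers mark a shared batch was not tested. With the numbers crossed, chosen after seeing the data, the block gave 7415. Leaving out ribosomal and structural RNA, also added after seeing the data, gave 4159.

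With Cu, the count of 1827 became 2907 with all genes and 2777 after the GC correction, and 510 to 4862 without 1 library. With Zn, the 3483 became 5566 with the replicate block, and 1784 to 6266 without 1 library. The Cu interaction, 0 by edgeR (2335 at an unadjusted p under 0.05), was 20 by DESeq2, 1087 with all genes and 0 to 6 without 1 library. The Zn interaction count of 288 was 1552 by DESeq2, 42 with RLE scaling, 2188 with all genes, 4 with the replicate block, 2 after the GC correction and 0 to 2483 without 1 library. Against *Baf180* KD the block gave 5508 for 2174. The cause of these shifts was not tested.

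Among the named genes, *Trp53inp1* reversed to -0.06 after the GC correction, with and without the block (-0.063 in both), and *Kcnq1ot1* to -0.040 and -0.038. Of 244 named DEGs other than *Brd9*, 141 kept their call without each of the 4 libraries. Depth limits the genes at a few counts, whose fold changes depend on the prior count of the fit.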

Other observations

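Genes of several further functions were measured, beside a called share of 29.2% over all genes tested. The called share was below that for splicing factors (27.1%), histone genes (12.5%), Hox genes (11.1%), Notch genes (21.1%) and bone and cartilage markers (20%). It was above for oncofetal and polycomb genes (38.9%), imprinted genes (53.3%) and cell cycle inhibitors and G1 regulators (45.5%). Of 70 splicing factors 16 rose and 3 fell (2 rose and none fell without KD replicate 2), with *Mbnl3*, a regulator of muscle splicing, at 15.7 and 12.6 against 26.5 and 34.3 CPM (scr against KD, log2 fold change 1.10, SE 0.17, edgeR adjusted p = 0.00364). Of 56 replication-dependent histone genes 2 rose and 5 fell, 20 rose and 4 fell after the GC and length correction, 30 fell and none rose without scr replicate 1, and 5 rose and 2 fell without scr replicate 2. Of 18 Hox genes 2 rose and none fell, with none called without KD replicate 2. Of 19 Notch pathway genes 3 rose and 1 fell (1 and 1 without KD replicate 1), with *Maml2*, a coactivator, at 9.79 and 7.05 against 17.6 and 17.2 CPM (log2 fold change 1.06, SE 0.19, edgeR adjusted p = 0.00572). Of 18 oncofetal and polycomb genes 5 rose and 2 fell (1 and 0 without KD replicate 2). Of 15 imprinted growth genes 5 rose and 3 fell (1 and 1 without it), with *Peg10* at 99.2 and 94.3 against 178 and 166 CPM (log2 fold change 0.83, SE 0.096, edgeR adjusted p = 8.60e-04) and the noncoding RNA *H19* at 5019 and 5110.0 CPM in scr and 3479 and 3343 CPM in *Brd9* KD (log2 fold change -0.57, SE 0.098, edgeR adjusted p = 0.00522). Of 22 cell cycle inhibitors and G1 regulators 6 rose and 4 fell (1 and 2 without it), and of 5 bone and cartilage markers 1 rose.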
